A study of Homo sapiens with 4 samples.

Results

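The NDUF genes encode the nuclear subunits of mitochondrial complex I and a group of its assembly factors. They were taken as all protein-coding genes (GENCODE release 29) whose symbol begins with NDUF, which gave 48 of the 63241 genes in the deposited table. Of these, 40 are outside the NDUFAF group and 8 are NDUFAF assembly factors. The 40 comprise 37 subunits of complex I, NDUFA4 and its paralogue NDUFA4L2, which carry the name without being counted among the complex I subunits today, and the readthrough gene NDUFC2-KCTD14. All 48 had a mean of at least 1 TPM (a transcript's share of its library, scaled for length, summing to about the same total in each) over the libraries, the minimum for testing.

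Complex I (NADH:ubiquinone oxidoreductase) is the entry point of electrons from NADH into the respiratory chain and pumps protons across the inner mitochondrial membrane. A matrix arm holds the flavin and the iron-sulphur clusters, and a membrane arm, whose core is encoded by the mitochondrial genome, holds the proton channels. Core subunits are shared with bacteria, accessory subunits surround them, and assembly factors help build the enzyme without remaining in it.

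RNA was from 22Rv1 cells, an established human prostate carcinoma line labelled as castration-resistant (CRPC), exposed for 12 h to 40 nM JMC45 or to the DMSO vehicle. JMC45 is a small molecule directed at CDK9, the kinase that releases paused RNA polymerase II, and the series title names a CDK9 degrader, D45, taken here to be the same compound. Each group had 2 libraries, made by oligo(dT) selection. Whether they were grown as separate cultures is not in the labels. The p-values therefore measure spread among these 4 libraries alone, and that spread may be technical.

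Since TPM is relative, the depth is unknown and no value shows the amount of mRNA per cell. The shift of the libraries bears on every result: on log2(TPM + 1), the median of 14018 tested genes changed by -1.10, while mitochondrially encoded transcripts summed to 204421 and 201236 TPM in vehicle and to 266228 and 293092 TPM in JMC45. Median-of-ratios scaling, which gives each library 1 factor that brings the median gene near 0 (median -0.02), is therefore given beside TPM. All 8 prostate luminal markers were present and summed to 1118 to 1150 TPM in vehicle and 360.3 to 371.7 TPM in JMC45. Of the 8, 7 fell and KLK3 did not pass, where 80.7% of all tested genes fell. Their part in the results was not tested. In bulk RNA, fewer cells of a type and less RNA per cell cannot be told apart. Leukocyte markers summed to at most 1.71 TPM (CD3E at 0 in all libraries), endothelial markers to at most 0.01 TPM (CDH5 and KDR at 0) and fibroblast markers to at most 7.74 TPM.

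Complex I subunit transcripts moved in both directions on TPM after JMC45, and most of their changes were smaller than 2-fold. Of the 40 NDUF genes outside the NDUFAF group, 9 rose and 16 fell in limma's test at an adjusted p under 0.05 (Benjamini-Hochberg over all tested genes), and 15 did not pass. Among all tested genes, 4.25% rose and 80.7% fell. The median change of the 40 was -0.13 on the log2(TPM + 1) scale. Of the 8 NDUFAF genes, 7 fell and 1 did not pass, with a median of -1.21, which is near the share and the median of all tested genes. Only 3 of the 40 and 4 of the 8 were at least 2-fold lower, against 54.6% of all tested genes. A change above that of the median gene was seen in 37 of the 40 and in 4 of the 8.

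Levels set part of the frame for these counts. In vehicle the median TPM was 226.7 over the 37 subunits, 46.4 over the 8 NDUFAF genes and 16.8 over 11570 tested protein-coding genes. Among the 941 nuclear protein-coding genes whose mean reached 100 TPM, 201 rose and 523 fell, with a median of -0.26. Of these 941, 154 were at least 2-fold lower and 806 had a change above that of the median gene. The mean that defines these 941 genes was taken over all 4 libraries, so a gene's own change affects whether it is included. NDUFA10 reached 100 TPM with a vehicle mean of 84.3 TPM, while NDUFA8, with a vehicle mean of 125.6 TPM, did not. Whether the subunits differed from other genes of their level was not tested.

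The direction of the single subunits depends on the scaling. After median-of-ratios scaling 37 of the 40 were called higher and 1 lower, with a median of 1.21. Shares over all tested genes were 34.9% higher and 35.5% lower. Of the 941 nuclear protein-coding genes whose mean reached 100 TPM, 799 were called higher and 62 lower after that scaling, with a median of 1.09. Of the 16 that fell on TPM, 13 were called higher on that scale, 2 did not pass and only NDUFV3 was still called lower. For the NDUFAF genes that scaling gave 3 higher and 2 lower, with a median of 0.03. Quantile normalization gave 25 higher and 6 lower for the 40 (33.6% and 32.8% of all genes), and 3 higher and 2 lower for the 8. The 6 were NDUFV3, NDUFA8, NDUFV2, NDUFB4, NDUFA12 and NDUFB10. Of these, NDUFB4, NDUFA12 and NDUFB10 were called higher by median-of-ratios scaling. With the summed TPM of mitochondrially encoded genes held equal, none of the 40 was called higher and 29 were lower (1.29% and 90.5% of all genes). With those genes removed, 15 of the 40 were higher and 13 lower (6.01% and 76.4% of all genes).

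**Figure D1:**
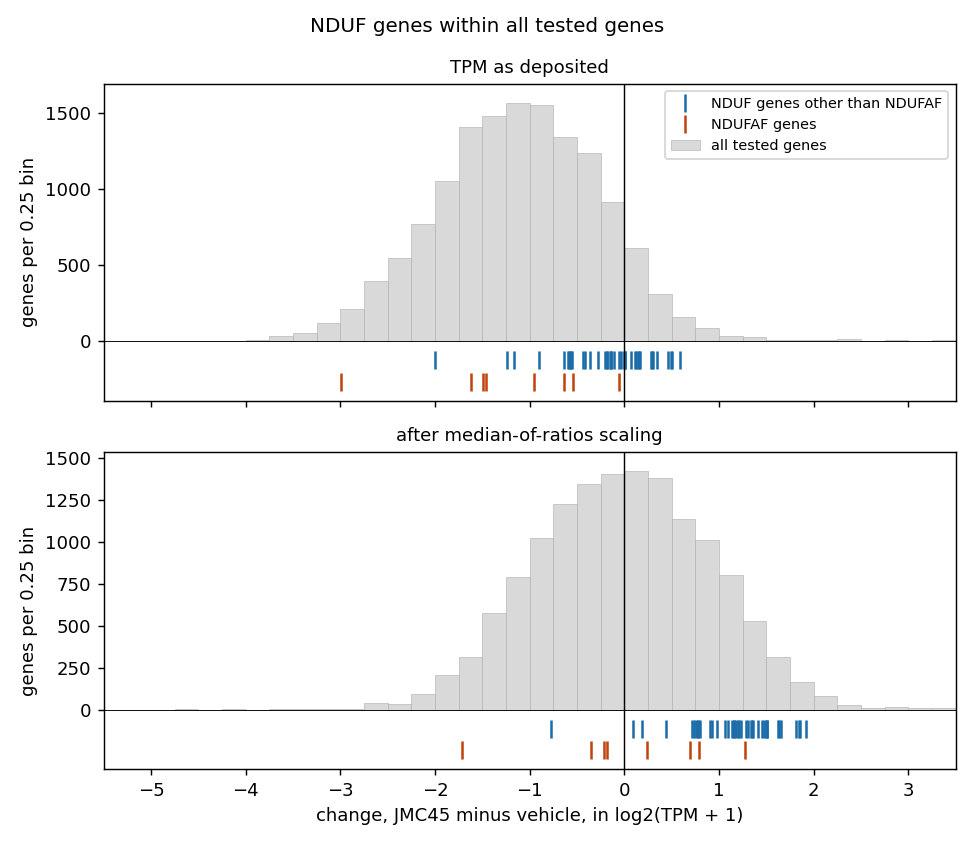
Grey bars count the 14018 tested genes by change (JMC45 minus vehicle, log2(TPM + 1), bins of 0.25), on TPM as deposited (top) and after median-of-ratios scaling (bottom). The axis ends at 3.5, and genes with larger changes are not shown. Blue ticks are the 40 NDUF genes outside the NDUFAF group and orange ticks the 8 NDUFAF genes. The blue ticks lie mostly to the right of the bulk of genes in both panels, while the orange ticks are spread across it, with NDUFAF4 far to the left.

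The promoters of the 2 subunits with the highest change, and of the subunit and the assembly factor with the lowest, are shown because these genes mark the ends of the range. The sequences are the 250 bases before the start of transcription (RefSeq, GRCh38.p14), on the gene's own strand, with capitals for letters of the motifs listed after them. NDUFA10 lies at chr2:240025343-240025592 (minus strand), NDUFA1 at chrX:119871582-119871831 (plus), NDUFV3 at chr21:42893059-42893308 (plus) and NDUFAF4 at chr6:96897892-96898141 (minus).
NDUFA10: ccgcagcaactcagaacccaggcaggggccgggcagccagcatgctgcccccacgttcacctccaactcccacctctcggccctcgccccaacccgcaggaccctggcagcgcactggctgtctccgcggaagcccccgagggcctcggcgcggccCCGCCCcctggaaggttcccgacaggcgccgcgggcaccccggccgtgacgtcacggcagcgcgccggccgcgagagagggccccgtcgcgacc
NDUFA1: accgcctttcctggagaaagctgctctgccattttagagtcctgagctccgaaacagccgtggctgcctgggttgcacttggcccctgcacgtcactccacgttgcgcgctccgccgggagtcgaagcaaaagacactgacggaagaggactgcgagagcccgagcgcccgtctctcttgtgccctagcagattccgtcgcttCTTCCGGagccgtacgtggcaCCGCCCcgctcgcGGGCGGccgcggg
NDUFV3: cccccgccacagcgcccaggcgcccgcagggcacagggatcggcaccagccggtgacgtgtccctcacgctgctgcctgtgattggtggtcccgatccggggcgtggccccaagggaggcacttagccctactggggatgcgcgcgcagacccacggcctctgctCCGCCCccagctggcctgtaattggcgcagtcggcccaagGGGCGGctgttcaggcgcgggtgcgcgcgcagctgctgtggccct
NDUFAF4: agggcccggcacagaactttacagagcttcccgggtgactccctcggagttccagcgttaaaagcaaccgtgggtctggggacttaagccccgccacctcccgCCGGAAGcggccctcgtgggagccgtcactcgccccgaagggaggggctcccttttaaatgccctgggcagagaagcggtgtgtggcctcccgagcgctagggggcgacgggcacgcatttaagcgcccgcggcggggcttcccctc

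The motifs were searched on both strands in windows from 250 bases before to 50 bases after the start, found for 40 of the 48 genes (33 outside the NDUFAF group and 7 within it). The other 8, NDUFAF6, NDUFA4L2, NDUFA4, NDUFB5, NDUFC2, NDUFB9 and NDUFS5 among them, had no entry. The SP1 string GGGCGG was in 22 of the 33 (66.7%), 4 of the 7 and 78.6% of 9429 tested protein-coding genes. For YY1, ATGGCGGC was in 9 of the 33 (27.3%), among them NDUFS1, NDUFS3 and NDUFA13, in 1 of the 7 (NDUFAF8) and in 7.95% of tested genes, and AAGATGGC, which can overlap it, was in 7 of the 33 (21.2%), the same 1 of the 7 and 6.94%. For NRF1, GCATGCGC was in 6 of the 33 (18.2%), in NDUFAF4 and NDUFAF5, and in 6.76% of tested genes. Of the longer NRF1 strings searched, 1 contains that string and was in 2 of the 33. The other has an open central base, contains it only where that base is A, and was in 6 of the 33. NDUFA11, NDUFA12, NDUFA3 and NDUFA9 held the open string without the shorter one. Both longer strings were in NDUFAF5, and 2.78% and 14.3% of tested genes held them. The ETS string CCGGAAG, bound by GABP among others, was in 5 of the 33 (15.2%), in NDUFAF4 and NDUFAF8, and in 23.9%, and the TATA string TATAAA was in 3 of the 33 (9.09%), none of the 7 and 8.07%. Over all 27305 genes with a window, in the order named here, the shares were 48.3%, 3.67%, 3.52%, 3.68%, 1.52%, 6.98%, 12.2% and 14.0%. In the printed stretches, NDUFA10 held the SP1 string 1 time, NDUFA1 and NDUFV3 each held it 2 times, and NDUFA1 and NDUFAF4 each held the ETS string 1 time. The NRF1 string of NDUFAF4 begins 6 bases after the start, beyond the part shown. A match is a description of the letters and shows neither a bound site nor a cause.

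The 7 nuclear core subunits moved in both directions on TPM: 4 fell, 1 rose and 2 did not pass, with a median of -0.36. Over all tested genes, 80.7% fell and 4.25% rose. NDUFV1 carries the flavin where NADH is oxidised, and NDUFV2 is its iron-sulphur partner at the tip of the matrix arm. NDUFV2 (ENSG00000178127) stood at 405.7 and 411.5 TPM in vehicle and at 184.0 and 179.3 TPM in JMC45. Its log2 change was -1.17 (SE 0.05, adjusted p = 1.37e-05), and both JMC45 libraries lay far below both vehicle libraries. NDUFV1 (ENSG00000167792) went the other way, from 161.7 and 158.9 TPM in vehicle to 204.6 and 189.0 TPM in JMC45 (log2 change 0.29, SE 0.06, adjusted p = 0.00571). Within a library, the ratio of NDUFV1 to NDUFV2, which no scaling of whole libraries can alter, was 0.399 and 0.386 in vehicle and 1.11 and 1.05 in JMC45.

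The other core subunits changed less. NDUFS8, which binds iron-sulphur clusters, was at 103.9 and 106.6 TPM in vehicle and 76.6 and 62.6 TPM in JMC45 (log2 change -0.60, SE 0.10, adjusted p = 0.00196). For NDUFS3 the values were 151.7 and 150.4 TPM in vehicle and 124.8 and 109.9 TPM in JMC45 (-0.36, SE 0.08, adjusted p = 0.00497). Neither of these genes had overlapping groups. NDUFS1, the subunit with the most iron-sulphur clusters, was at 109.8 and 98.8 TPM and at 89.4 and 94.0 TPM, without overlap, but its change of -0.18 did not pass (95% interval -0.37 to 0.0048, adjusted p = 0.0631). NDUFS7, which carries the last cluster before ubiquinone, overlapped: 85.9 and 79.9 TPM in vehicle against 85.1 and 65.3 TPM in JMC45 (change -0.15, 95% interval -0.47 to 0.17, adjusted p = 0.310). After median-of-ratios scaling 6 of the 7 core genes were called higher (34.9% of all tested genes), and NDUFV2, at 0.18, did not pass. After quantile normalization 3 of the 7 were called higher and NDUFV2 lower, at -0.82 (33.6% and 32.8% of all tested genes).

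**Figure D2:**
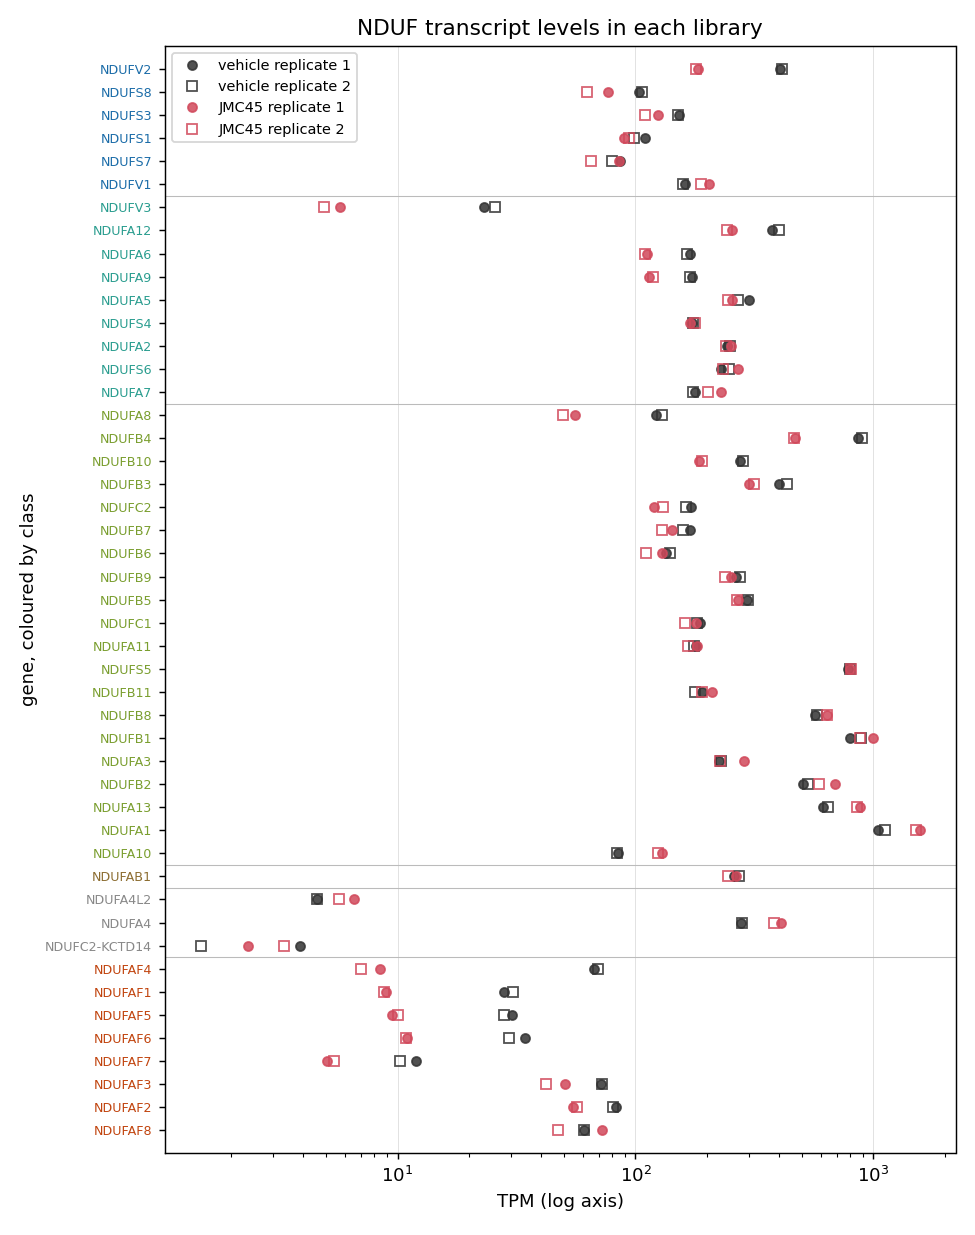
TPM on a log axis for NDUF genes, with 1 row per gene and 1 mark per library (black for vehicle, red for JMC45; filled for replicate 1, open for replicate 2); name colours and grey lines separate core, matrix arm, membrane arm, carrier, other NDUF-named and assembly factor genes. NDUFV3 and NDUFAF4 show the widest gaps between the black and red marks, and most membrane arm genes show small ones.

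Among the 9 accessory subunits of the matrix arm, 5 fell, 1 rose and 3 did not pass on TPM (median -0.19). Of all tested genes, 80.7% fell and 4.25% rose. NDUFV3, an accessory subunit beside NDUFV1 and NDUFV2, had the lowest change of all 37 subunits. Its transcript (ENSG00000160194), with a promoter among the 4 printed, was at 23.0 and 25.6 TPM in vehicle and at 5.74 and 4.91 TPM in JMC45, a log2 change of -2.002 (SE 0.12, adjusted p = 2.36e-05). It was the least abundant subunit transcript in all 4 libraries, and after median-of-ratios scaling it was the only subunit called lower (-0.77). NDUFA12, NDUFA6 and NDUFA9, which stabilises the junction with the membrane arm, fell by 0.64, 0.59 and 0.56. NDUFA5 fell by 0.19 (adjusted p = 0.0441), a call lost without vehicle replicate 1, JMC45 replicate 1 or JMC45 replicate 2, and with the replicate block (adjusted p = 0.0556).

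Several transcripts of that arm stayed close to their vehicle level on TPM. NDUFS4, a gene often mutated in inherited complex I deficiency, was at 173.1 and 174.8 TPM in vehicle and at 170.2 and 177.6 TPM in JMC45 (95% interval of the log2 change -0.14 to 0.14). NDUFA2 had an interval of -0.14 to 0.15 and NDUFS6 one of -0.14 to 0.29, and all 3 had overlapping groups. NDUFA7 rose from 178.1 and 174.8 TPM to 228.4 and 201.5 TPM (log2 change 0.28, SE 0.08, adjusted p = 0.0137). That call was lost without either vehicle library and without JMC45 replicate 1.

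The membrane arm had 20 accessory subunits, of which 5 rose, 7 fell and 8 did not pass (median -0.07). Shares over all tested genes were 4.25% that rose and 80.7% that fell. NDUFA10 (ENSG00000130414) had the highest change of all NDUF genes. It went from 84.7 and 83.9 TPM in vehicle to 129.6 and 124.8 TPM in JMC45, a log2 change of 0.59 (SE 0.06, adjusted p = 0.000187). NDUFA1, a small membrane subunit and the most abundant of the 37 transcripts in every library, went from 1045 and 1116 TPM to 1563 and 1507 TPM (0.51, SE 0.06, adjusted p = 0.000402). NDUFA13, also known as GRIM-19, went from 612.6 and 643.2 TPM to 881.7 and 853.9 TPM (0.47, SE 0.06, adjusted p = 0.000428). In these 3 genes both JMC45 libraries lay above both vehicle libraries by more than the gap between replicates. With mitochondrially encoded TPM held equal, the 3 changes were 0.13, 0.04 and 0.01, and none passed.

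NDUFB2 and NDUFB8 also rose, by 0.31 (adjusted p = 0.0154) and 0.15 (adjusted p = 0.0379). The NDUFB2 call was lost without either vehicle library and without JMC45 replicate 1, and the NDUFB8 call was lost with any 1 of the 4 libraries left out and with the replicate block (adjusted p = 0.107). At the other end, NDUFA8, which carries twin cysteine motifs and faces the intermembrane space, was at 121.4 and 129.8 TPM in vehicle and at 55.4 and 49.7 TPM in JMC45 (log2 change -1.24, SE 0.08, adjusted p = 3.2e-05). NDUFB4 went from 857.9 and 892.3 TPM to 468.3 and 465.5 TPM (-0.90, SE 0.05, adjusted p = 2.61e-05). By vehicle mean NDUFB4 was, after NDUFA1, the most abundant of the 37 subunit transcripts. NDUFB10, NDUFB3, NDUFC2, NDUFB7 and NDUFB5 fell by 0.57, 0.44, 0.41, 0.27 and 0.14. NDUFB7 no longer passed when vehicle replicate 1 or JMC45 replicate 2 was left out. That of NDUFB5 was lost with any 1 library left out, with a pseudocount of 0.1 and with the replicate block (adjusted p = 0.117).

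The 8 that did not pass were NDUFB6, NDUFB9, NDUFC1, NDUFA11, NDUFS5, NDUFB11, NDUFB1 and NDUFA3, with changes from -0.20 to 0.17. NDUFS5, another abundant transcript, was at 783.5 and 799.3 TPM in vehicle and at 795.7 and 801.3 TPM in JMC45, with overlapping groups and a 95% interval of -0.12 to 0.14. NDUFAB1, the acyl carrier protein found in both arms and needed for mitochondrial fatty acid synthesis, was at 258.6 and 271.9 TPM and at 264.7 and 245.8 TPM (interval -0.22 to 0.10). Over all 40 genes outside the NDUFAF group, the groups did not overlap in 9 with JMC45 above and in 20 with JMC45 below, compared with 6.28% and 85.7% of all tested genes.

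Of the genes that carry the NDUF name without being complex I subunits, NDUFA4, now assigned to complex IV, rose from 279.0 and 281.0 TPM to 408.8 and 383.4 TPM (log2 change 0.50, SE 0.06, adjusted p = 0.000361). NDUFA4L2, a paralogue known for its induction by hypoxia, was listed far lower, at 4.60 and 4.59 TPM in vehicle and 6.59 and 5.70 TPM in JMC45 (0.35, SE 0.13, adjusted p = 0.0421), and its call was lost with any 1 library left out. NDUFC2-KCTD14 was at 3.91 and 1.49 TPM in vehicle and 2.36 and 3.34 TPM in JMC45 and did not pass (interval -0.69 to 0.95). It shares exons with NDUFC2, so the division of reads between these 2 genes is uncertain.

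Each library was also left out in turn, which leaves 1 library in a group and lowers the power. A call can then be lost with little change in its size, as for NDUFB8, whose change stayed between 0.13 and 0.17. The count of 9 increases became 5 without vehicle replicate 1, 5 without vehicle replicate 2, 5 without JMC45 replicate 1 and 8 without JMC45 replicate 2. Called higher in all 4 of these fits were NDUFA1, NDUFA10, NDUFA13, NDUFV1 and NDUFA4. Of the 16 decreases, 13 were called in all 4 fits, and NDUFB7, NDUFA5 and NDUFB5 were not.

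The assembly factors differed widely among themselves. NDUFAF4 (ENSG00000123545), also among the 4 promoters printed, which acts in building the part of the matrix arm that binds ubiquinone, was at 66.7 and 69.9 TPM in vehicle and at 8.43 and 7.05 TPM in JMC45. Its mean was 8.82-fold lower, its log2 change was -2.99 (SE 0.10, adjusted p = 1e-05), and only 1.66% of all tested genes had a lower change. NDUFAF1, also known as CIA30 and needed for an early membrane arm intermediate, fell from 28.0 and 30.6 TPM to 8.92 and 8.79 TPM (-1.62, SE 0.09, adjusted p = 2.19e-05). Both were still called lower after median-of-ratios scaling (-1.71 and -0.35) and after quantile normalization (-1.89 and -0.36), and no other NDUFAF gene passed as lower on either scale.

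NDUFAF5, an arginine hydroxylase acting on NDUFS7, fell from 30.4 and 28.2 TPM to 9.5 and 10.07 TPM (log2 change -1.49, SE 0.09, adjusted p = 2.8e-05). NDUFAF6 fell from 34.3 and 29.5 TPM to 11.01 and 10.9 TPM (-1.46, SE 0.10, adjusted p = 4.23e-05). NDUFAF7, a methyltransferase, was the least abundant of the 8, at 11.96 and 10.3 TPM in vehicle and 5.05 and 5.43 TPM in JMC45 (-0.96, SE 0.12, adjusted p = 0.000525). In these 3 genes the vehicle and JMC45 libraries were separated by more than the gap within either group, but none passed after median-of-ratios scaling (-0.21, -0.18 and 0.24).

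NDUFAF3 and NDUFAF2 fell least. NDUFAF3, a partner of NDUFAF4, went from 71.8 and 72.3 TPM to 50.5 and 42.2 TPM (-0.63, SE 0.10, adjusted p = 0.00118), and NDUFAF2, a paralogue of NDUFA12, from 82.9 and 80.1 TPM to 54.6 and 56.8 TPM (-0.54, SE 0.07, adjusted p = 0.000390). Both were called higher after median-of-ratios scaling (0.70 and 0.79). NDUFAF8, a small partner of NDUFAF5, was at 60.96 and 60.57 TPM in vehicle, but its JMC45 libraries lay on either side, at 72.2 and 47.4 TPM (change -0.05, 95% interval -0.51 to 0.40, adjusted p = 0.798). It was called higher without JMC45 replicate 2 (0.24, adjusted p = 0.0436) and lower without JMC45 replicate 1 (-0.35, adjusted p = 0.0151).

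Partners in assembly thus had unequal values: NDUFAF4 against NDUFAF3 (-2.99 and -0.63) and NDUFAF5 against NDUFAF8 (-1.49 and -0.05). The differences within these pairs were not tested.

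Transcripts of complex I assembly genes outside the NDUF family were listed from a set of 12, of which 10 fell, none rose and 2 (NUBPL and COA1) did not pass, with a median of -0.82, where 80.7% of all tested genes fell. TMEM186 went from 20.5 and 21.6 TPM to 1.29 and 1.32 TPM (log2 change -3.25, SE 0.12, adjusted p = 1e-05) and TMEM70 from 39.6 and 38.7 TPM to 5.60 and 4.79 TPM (-2.70). TIMMDC1 and ECSIT had changes of -1.57 and -1.198, and both fell. After median-of-ratios scaling 7 of the 12 were called higher and 2, TMEM186 and TMEM70, lower (34.9% and 35.5% of all tested genes).

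Summed over the 37 nuclear subunits, transcripts held 11291 and 11622 TPM in vehicle and 11349 and 10763 TPM in JMC45, with overlapping groups. For the 40 genes outside the NDUFAF group the share of all TPM was 1.17% ± 0.0234 (SD, n = 2) in vehicle and 1.146% ± 0.0432 in JMC45, with p = 0.67 in a two-sided exact permutation test whose smallest possible value is 0.33. Leaving out the mitochondrially encoded genes turned the difference in that share from -0.0282 to 0.118 percentage points. Differences in share by structural class were not tested. Core subunits held 0.130% ± 0.000488 in vehicle and 0.0928% ± 0.0032 in JMC45, and matrix arm accessory subunits held 0.187% ± 0.00141 and 0.162% ± 0.00601. Membrane arm accessory subunits, led by NDUFA1, held 0.802% ± 0.0215 and 0.8255% ± 0.0309, with overlapping groups. The NDUFAF genes held 0.0384% ± 0.000396 and 0.0204% ± 0.00223.

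Ratios within a library do not depend on its scaling. Summed nuclear subunit TPM was 29.2 and 30.5 times that of the NDUFAF genes in vehicle and 51.6 and 57.1 times in JMC45. The subunit transcripts also spread further apart: NDUFA1 over NDUFV3, the highest over the lowest, was 45.4 and 43.6 in vehicle and 272.2 and 306.9 in JMC45. Unlike a ratio, an SD of log2(TPM + 1) depends on the scaling through the added 1. Over the 37 subunits it was 1.09 and 1.11 in vehicle and 1.37 and 1.39 in JMC45. Their order was similar in both groups, with a Spearman rho of 0.904 across the 37 genes between the mean levels, given as a description since genes of the same libraries are not independent.

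**Figure D3:**
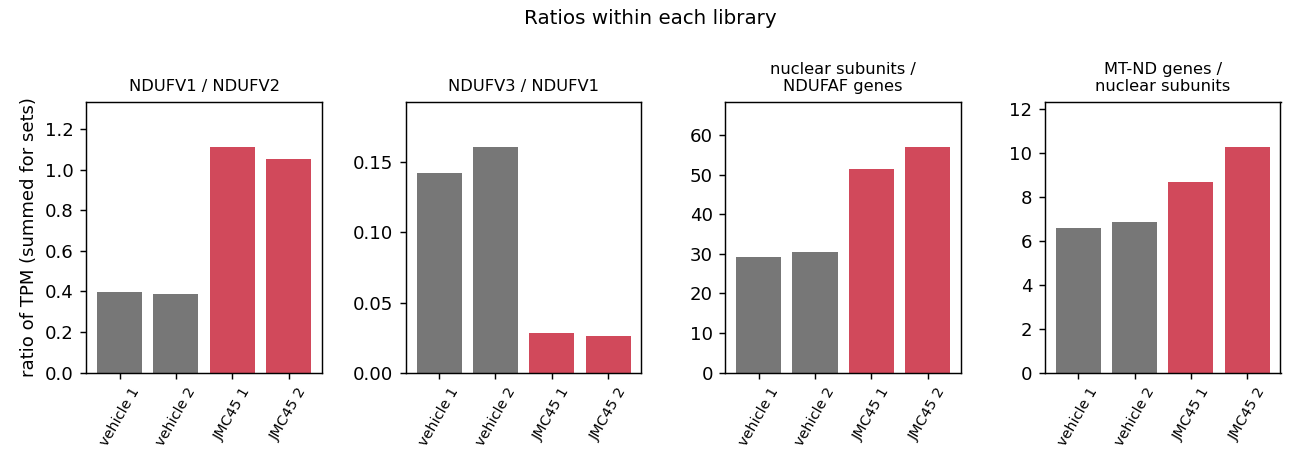
Ratios of TPM within each of the 4 libraries (grey for vehicle, red for JMC45; each bar is 1 library and each axis starts at 0): NDUFV1 to NDUFV2, NDUFV3 to NDUFV1, summed nuclear subunits to summed NDUFAF genes, and summed MT-ND genes to summed nuclear subunits. In each panel both JMC45 bars lie on 1 side of both vehicle bars, for example 1.11 and 1.05 against 0.399 and 0.386 for NDUFV1 to NDUFV2.

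The 7 core subunits of the membrane arm are encoded by the mitochondrial genome and transcribed by another polymerase, POLRMT. Of these transcripts 6 rose and MT-ND2 fell on TPM (median 0.44), where 4.25% of all tested genes rose and 80.7% fell. MT-ND4 went from 5768 and 6201 TPM to 10243 and 11173 TPM (log2 change 0.84), MT-ND4L from 14884 and 16449 TPM to 24142 and 29476 TPM (0.77), and MT-ND2 from 10925 and 11352 TPM to 8148 and 8795 TPM (-0.40). Together the MT-ND transcripts were at 6.58 and 6.83 times the summed nuclear subunit TPM in vehicle and at 8.69 and 10.3 times in JMC45. After median-of-ratios scaling all 7 were called higher (34.9% of all tested genes). After quantile normalization 1 was higher and 2 lower (33.6% and 32.8% of all tested genes).

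Nuclear genes of the other respiratory complexes are given for comparison, without a test of the difference between complexes. Of 41 genes of complexes II to V, 15 rose, 13 fell and 13 did not pass on TPM (median -0.02), and none was at least 2-fold lower. Over all tested genes 4.25% rose, 80.7% fell and 54.6% were at least 2-fold lower. The median was -0.19 over 4 genes of complex II, 0.08 over 9 of complex III, 0.36 over 10 of complex IV and -0.03 over 18 of complex V. Complex IV had 7 genes that rose and 1 that fell, led by COX6C (0.60), COX7A2 (0.59) and COX8A (0.52). UQCRFS1, the Rieske iron-sulphur protein of complex III, fell by 0.74. Median-of-ratios scaling called all 41 higher, against 37 of the 40 NDUF genes outside the NDUFAF group. It also called higher 34.9% of all tested genes and 799 of the 941 nuclear protein-coding genes whose mean reached 100 TPM.

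Regulators known to act on respiratory chain genes had lower TPM. All 10 tested of 11 fell, with a median of -1.65, where 80.7% of all tested genes fell with a median of -1.10. After median-of-ratios scaling 8 were lower and 1 higher (35.5% and 34.9% of all tested genes). The log2 changes were -2.43 for TFB2M, a mitochondrial transcription factor, -2.31 for the coactivator PPRC1, -2.05 for GABPB1 and -1.997 for YY1. NRF1, a factor that binds many respiratory chain promoters, fell by 1.55. POLRMT fell by 1.63 on TPM and was still called lower after median-of-ratios scaling (-0.35). A link between POLRMT and the mitochondrially encoded transcripts was not tested.

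Subunit genes were short with few exons. The 37 subunit genes had a median mRNA length of 958 bases and 4 exons in their principal transcript, against 3106 bases and 9 exons over tested protein-coding genes, and the 8 NDUFAF genes had 1905 bases and 5 exons (GENCODE release 29). Spearman's rho with the change on TPM across the 37 was -0.13 for the genomic span, -0.03 for mRNA length, 0.02 for exon number and 0.36 for the mean TPM of all 4 libraries, the last of which enters the change itself. NDUFA10 and NDUFA1, the pair with the highest change, span 132953 and 5176 bases. NDUFAF4, with the lowest, spans 8569 bases.

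Annotation sets a limit on some of these values. Exons of 14 of the 48 genes overlap those of another gene on the same strand and exons of 21 overlap a gene on the other strand, and 21 overlap neither. The sources used here do not say if reads were assigned by strand. NDUFA7 overlaps RPS28 and NDUFA1 overlaps RNF113A on the opposite strand, and NDUFA13 overlaps YJEFN3 on the same strand. NDUFV2 overlaps an unnamed gene on its own strand. NDUFV1 overlaps an unnamed gene on its own strand and NDUFV1-DT on the other. The values of these genes, and the ratio of NDUFV1 to NDUFV2, are therefore uncertain. NDUFA10, NDUFV3, NDUFA8, NDUFAF1 and NDUFAF4 overlap no other gene in that annotation. The 63 NDUF-named pseudogenes summed to 7.33 and 3.95 TPM in vehicle and 1.01 and 1.24 TPM in JMC45, and 50 of them were listed at 0 in every library. The highest was NDUFV2P1, at 3.04 and 2.12 TPM in vehicle, against 405.7 and 411.5 TPM for NDUFV2.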

How the data were processed

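RNA-seq was done on 2 vehicle and 2 JMC45 libraries of 22Rv1 cells. The authors deposited TPM per gene. Per the submitters' processing notes the tools were fastp, HISAT2 and StringTie. The sources used here give neither versions nor genome build nor annotation. Per the labels' protocols, poly(A) RNA was selected with oligo(dT). Columns headed CTL were matched to the vehicle titles by number.

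Of 63241 genes, the 14018 whose mean reached 1 TPM were fitted on log2(TPM + 1) with limma 3.58.1 (R 4.3.3, intensity trend, no block), with Benjamini-Hochberg adjustment over all of them and a threshold of 0.05. Changes on this scale understate those of low genes. Gene type, spans and overlaps came from GENCODE release 29 and promoters from RefSeq. Scripts were tested on simulated data.

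Members, gene lists and classes were chosen with earlier results of these data known. The values of 1 member are not reported here, though it is counted in the sets. Values are given in every library for the other core subunits, NDUFAF genes, NDUFA4, NDUFA4L2, the readthrough gene, the 3 highest and 3 lowest subunits and the ends of each class. A few others (NDUFS4, NDUFS5, NDUFA2, NDUFS6, NRF1, POLRMT) were chosen after their values were seen. Alternatives were another pseudocount, filters, scalings, no trend, the replicate block and leaving out each library.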

Additional observations from a re-analysis of the deposited data

How the results depend on the processing

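The counts depend mostly on how the libraries are scaled. On TPM, 16 of the 40 genes outside the NDUFAF group were called lower and 9 higher, and 7 of the 8 NDUFAF genes were called lower and 0 higher. Median-of-ratios scaling gave 1 lower and 37 higher, and 2 and 3 for NDUFAF. Its factors were 1.71 and 1.52 for vehicle and 0.646 and 0.618 for JMC45, so by construction it raises every JMC45 value relative to vehicle. Quantile normalization gave 6 lower and 25 higher, and 2 and 3 for NDUFAF. Leaving out the mitochondrially encoded genes gave 15 higher, and holding their total equal gave 29 lower and 0 higher. For the share of all TPM, the difference of -0.0282 percentage points became 0.118 without mitochondrially encoded genes and ranged from -0.0588 to 0.00231 with 1 library left out. With 1 library left out, higher calls outside the NDUFAF group numbered 5 to 8 and within it 0 to 1; the lone library of a group is assumed to vary like the others. A pseudocount of 0.1, no filter, a mean TPM of at least 5 and no intensity trend kept these counts within 1.5 times, and reversed no single gene.

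Log2 changes with the opposite sign after median-of-ratios scaling were NDUFA8 0.0932, NDUFV2 0.18, NDUFAF7 0.24, NDUFB4 0.45, NDUFAF3 0.70, NDUFA12 0.71, NDUFS8 0.74, NDUFA6 0.75, NDUFB10 0.78, NDUFA9 0.78, NDUFAF2 0.79, NDUFB3 0.91, NDUFC2 0.93, NDUFS3 0.98, NDUFB7 1.07, NDUFB6 1.14, NDUFS1 1.16, NDUFA5 1.16, NDUFS7 1.18, NDUFB9 1.21, NDUFB5 1.21, NDUFC1 1.23, NDUFAF8 1.28, NDUFAB1 1.29, NDUFA11 1.31, NDUFS4 1.34. After quantile normalization they were NDUFS5 -0.0073, NDUFC2 0.0755, NDUFS8 0.0897, NDUFS3 0.14, NDUFB7 0.19, NDUFA5 0.21, NDUFAF3 0.21, NDUFB5 0.24, NDUFB9 0.24, NDUFAF2 0.25, NDUFC1 0.25, NDUFB6 0.32, NDUFAB1 0.33, NDUFA11 0.36, NDUFAF7 0.41, NDUFS4 0.42, NDUFS1 0.45, NDUFS7 0.57, NDUFAF8 0.78. Without mitochondrially encoded genes they were NDUFB9 0.0037, NDUFB5 0.0058, NDUFC1 0.0326, NDUFAB1 0.0898, NDUFAF8 0.0907, NDUFA11 0.11, NDUFS4 0.15, and with their total held equal NDUFA2 -0.45, NDUFS5 -0.45, NDUFS6 -0.39, NDUFB11 -0.35, NDUFB8 -0.31, NDUFB1 -0.30, NDUFA3 -0.29, NDUFC2-KCTD14 -0.20, NDUFA7 -0.18, NDUFV1 -0.17, NDUFB2 -0.15, NDUFA4L2 -0.0375. Ranges over the fits with 1 library left out, for genes whose sign changed, were NDUFA11 -0.10 to 0.0287, NDUFA2 -0.0277 to 0.0417, NDUFAF8 -0.35 to 0.24, NDUFC2-KCTD14 -0.36 to 0.62, NDUFS4 -0.0312 to 0.0300, NDUFS5 -0.0016 to 0.0273, NDUFS6 -0.0315 to 0.17, NDUFS7 -0.34 to 0.0378. Apart from the scaling factors, the cause was not tested.

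Titles number the libraries 1 and 2 in both groups, but deviations of same-numbered libraries correlated at -0.0471 across genes, so the numbers were not taken as pairs. With the replicate block, 14 of the 40 were called lower and 8 higher, and 7 NDUFAF genes were lower. Calls lost with that block were NDUFA5, NDUFB5 and NDUFB8 (adjusted p = 0.0556, 0.117 and 0.107). TPM keeps no depth, so no counting error can be given.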

Other observations

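Transcripts named after NDUF genes without coding for a subunit were low in all libraries. NDUFA6-DT, which overlaps NDUFA6 on the opposite strand, was at 4.31 and 3.18 TPM in vehicle and 1.29 and 1.15 TPM in JMC45, while NDUFA6 itself was at 169.3 and 164.3 TPM and at 111.8 and 109.4 TPM. NDUFV1-DT was at 1.61 and 1.16 TPM in vehicle and 0.55 and 0.28 TPM in JMC45, although NDUFV1 rose. NDUFV2-AS1 was at 0.78 and 1.25 TPM in vehicle and 0.15 and 0 TPM in JMC45. In each of these 3 the groups did not overlap, with JMC45 below. The same held for 85.7% of all tested genes, but NDUFV1-DT and NDUFV2-AS1 had means under 1 TPM and were not among those tested.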
